A study of Rattus norvegicus with 12 samples.

Results

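The 100 genes described here were chosen by how closely their level followed that of 1 rat gene, ENSRNOG00000009577, from library to library within the study's groups. Per gene, estimated counts were expressed as CPM (counts scaled to the same total in every library), taken as log2(CPM + 0.1), and the mean of the library's own group was subtracted. Among 14080 Ensembl genes with a mean of at least 1 CPM, the 100 with the highest Pearson correlation (r) with ENSRNOG00000009577 over 12 libraries were kept, that gene included. They made up 0.71% of the eligible genes. The shared movement of these genes within groups was therefore what selected them, and it is given below as a description with no test. Differences between group means were removed before the selection, and those were tested. The tests measure those differences against the spread within groups, which the selection did use. The genes were kept for following 1 gene whose own group means differed, as given below. Their group differences are therefore not independent of that gene's.

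RNA sequencing was done on total RNA of prefrontal cortex, taken from rats of the SD strain on postnatal day 28. There were 4 libraries of normal rats (numbers 8, 10, 11 and 13), 4 of a hypoxic-ischaemic brain damage (HIBD) model (2, 8, 16 and 18) and 4 of an acupuncture group (5, 22, 35 and 55). The labels do not say whether the acupuncture rats also carried the HIBD lesion, how the lesion was made, which points were needled, or whether a library was 1 animal. The p-values below therefore measure the spread between these libraries, which may in part be technical.

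HIBD is brain injury from a shortage of oxygen and blood flow around birth, and rodent models of it are used to study later brain development. The prefrontal cortex holds excitatory and inhibitory neurons, astrocytes, oligodendrocytes and their precursors, microglia and vessel cells, and a bulk library sums their RNA. In such data a lower level from fewer cells of a type and from less RNA per cell cannot be told apart. A correlation across bulk libraries says that the levels of a pair of genes rose and fell together, and on its own nothing of shared cells or shared control. The files give the genes by Ensembl identifier only, so no function is stated for any of them and the tissue was not checked against marker genes.

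Some libraries stood apart for the whole list, in the same values that the rule used. In the HIBD model group, libraries 2 and 18 were the 2 highest for all 100 genes, while they were the 2 highest for 50.5% of the eligible genes. HIBD model 8 was the lowest of its group for 91 of the 100 genes, against 34.0% of the eligible genes. In the normal group, libraries 10 and 13 were the 2 highest for 84 genes, against 22.5% of the eligible genes, and acupuncture 5 was the highest of its group for 78, against 29.3%. The group comparisons below give values with single libraries left out.

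ENSRNOG00000009577 itself was high in every normal library. It stood at 180, 407, 225 and 457 CPM in normal 8, 10, 11 and 13. In the HIBD model libraries 2, 8, 16 and 18 it stood at 299, 13.8, 34.4 and 262 CPM. Libraries 2 and 18 lay within the normal range, and libraries 8 and 16 lay below every normal library. The acupuncture libraries 5, 22, 35 and 55 held 14.7, 8.25, 6.92 and 8.20 CPM, all below the lowest normal library. HIBD model 8, at 13.8 CPM, fell inside the acupuncture range, and the other HIBD model libraries lay above it. Group means were 317 ± 135 CPM in normal, 152 ± 149 in HIBD model and 9.53 ± 3.53 in acupuncture (SD, n = 4 each). The gene had 1 transcript row, so its level is that of 1 annotated transcript. Of its squared deviations from the group means on the log2 scale, 88.1% came from the HIBD model libraries, 7.81% from normal and 4.10% from acupuncture.

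**Figure D1:**
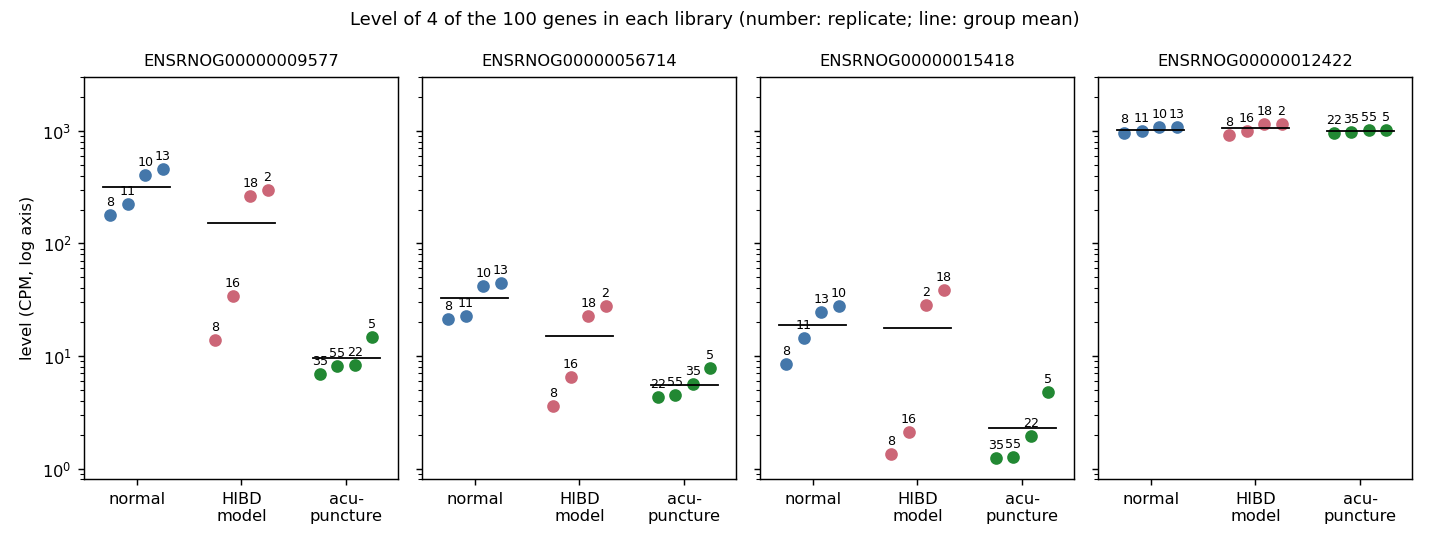
Level of 4 of the 100 genes in each library, in CPM on a shared log axis, by group; each point is 1 library marked with its replicate number and each line is the group mean (n = 4). In ENSRNOG00000009577, ENSRNOG00000056714 and ENSRNOG00000015418, HIBD model 2 and 18 sit near the normal libraries and 8 and 16 well below them, while ENSRNOG00000012422 has HIBD model 2 and 18 above 8 and 16 within a range of 917 to 1161 CPM.

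The working name of the list calls this gene the one that varied most between libraries, and the data go against that name. Its standard deviation after removal of the group means was 1.22 on the log2 scale, which ranked 358 of the 14080 eligible genes. Among the 7926 genes with a mean of at least 10 CPM it ranked 77, and among the 1813 with at least 100 CPM it ranked 9. It was thus among the most variable of the abundant genes, and below many genes of low level. The list is called here by its reference gene.

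The gene closest to it was ENSRNOG00000056714 (r = 0.98). Its levels were 21.4, 42.0, 22.5 and 44.1 CPM in normal 8, 10, 11 and 13. They were 27.7, 3.60, 6.56 and 22.9 CPM in HIBD model 2, 8, 16 and 18, and 7.74, 4.32, 5.62 and 4.51 CPM in acupuncture 5, 22, 35 and 55. All acupuncture libraries lay below all normal libraries, and HIBD model 8 was the lowest of the 12. The order of the HIBD model libraries was the same as for the reference gene.

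ENSRNOG00000015418 (r = 0.97) had a wider range, with a standard deviation of 1.42. It held 8.43, 27.6, 14.3 and 24.3 CPM in normal 8, 10, 11 and 13. The HIBD model libraries 2, 8, 16 and 18 held 28.2, 1.35, 2.13 and 38.6 CPM, so that 2 and 18 were above every normal library and 8 and 16 below every one. Acupuncture 5, 22, 35 and 55 held 4.74, 1.94, 1.25 and 1.27 CPM. Here acupuncture 5 was the highest of its group, as it was for the reference gene and for ENSRNOG00000056714.

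The other 3 genes of highest correlation moved over a much smaller range, again with HIBD model 2 and 18 as the 2 highest of their group. ENSRNOG00000001243 (r = 0.97) held 6.04, 7.18, 6.36 and 7.40 CPM in normal, 9.42, 5.89, 7.31 and 9.93 in HIBD model and 7.36, 7.26, 6.65 and 6.95 in acupuncture, in the library order above. The levels of its 3 groups overlapped. ENSRNOG00000004538 (r = 0.97) ranged from 40.9 CPM in HIBD model 8 to 53.6 CPM in HIBD model 2, and its acupuncture libraries, at 41.8 to 44.0 CPM, lay below its normal libraries, at 46.6 to 50.2 CPM. ENSRNOG00000014686 (r = 0.97) held 188, 217, 206 and 231 CPM in normal, 255, 141, 148 and 248 in HIBD model and 178, 159, 153 and 172 in acupuncture. A high correlation in this list thus did not require a large change in level.

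Along with ENSRNOG00000015418, the largest standard deviations belonged to ENSRNOG00000022163 (1.46) and ENSRNOG00000022723 (1.25), both of low level. ENSRNOG00000022163 held 1.18 to 3.63 CPM in the normal libraries, 3.37, 0.13, 0.20 and 8.37 CPM in HIBD model 2, 8, 16 and 18, and 0.58, 0.12, 0.13 and 0.084 CPM in acupuncture 5, 22, 35 and 55. The highest HIBD model library was 64.2 times the lowest. Most of this gene's level in every library came from 1 transcript assembled by the authors, which held 8.31 CPM in HIBD model 18. Its Ensembl transcripts each held at most 0.06 CPM in any library. ENSRNOG00000022723 held 0.90 to 2.37 CPM in normal, 2.30, 0.028, 0.23 and 1.65 CPM in HIBD model, and 2.05, 0.66, 0.47 and 0.23 CPM in acupuncture. Its acupuncture 5 library lay within the normal range. Its ratio of highest to lowest HIBD model library, 82.6, was the largest of the 100 genes and rests on 1 library at 0.028 CPM.

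The 3 genes with the highest mean CPM moved little in 2 cases and strongly in the third. ENSRNOG00000012422 (mean 1024 CPM, 40.8 FPKM) held 1161, 917, 1006 and 1140 CPM in HIBD model 2, 8, 16 and 18, and its normal and acupuncture libraries ran from 952 to 1075 CPM. ENSRNOG00000009812 (mean 455 CPM, 17.3 FPKM) held 607, 421, 434 and 605 CPM in the same HIBD model libraries, and 396 to 470 CPM elsewhere. In both, HIBD model 2 and 18 were the highest of all 12 libraries. ENSRNOG00000014550 (mean 248 CPM, 22.7 FPKM) held 299, 383, 245 and 442 CPM in normal, 412, 118, 123 and 459 in HIBD model and 155, 136, 104 and 97.1 in acupuncture. Its acupuncture libraries all lay below its normal libraries. FPKM divides by transcript length as well as depth, and on that scale the members' mean levels had a median of 7.56, against 8.46 for the eligible genes.

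**Figure D2:**
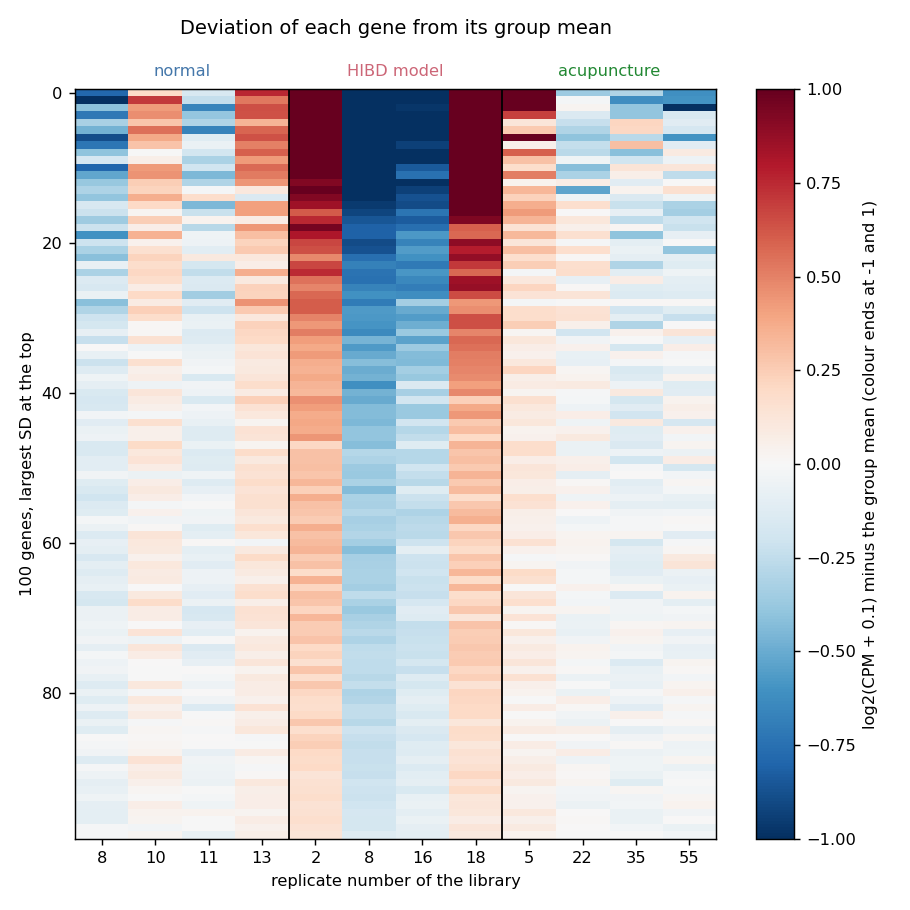
Deviation of each of the 100 genes (rows, ordered by standard deviation) from its own group's mean, as log2(CPM + 0.1), in the 12 libraries (columns, grouped). HIBD model 2 and 18 are above their group mean and HIBD model 8 and 16 mostly below it down the whole list, with the strongest colours in the 20 genes whose standard deviation was over 0.5.

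Over the whole list the range of movement was wide. Standard deviations within groups ran from 0.08 to 1.46 on the log2 scale, with quartiles of 0.16, 0.20 and 0.44. The eligible genes had a median of 0.20 as well, and an upper quartile of 0.32. The standard deviation was over 0.5 in 20 of the 100 genes, against 12.5% of the eligible genes. The median member was thus about as variable as the median eligible gene, and the upper end of the list was more variable.

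The spread lay mainly in 1 group. The rule favours this, as 88.1% of the reference gene's own squared deviations came from the HIBD model libraries. The highest HIBD model library was at least 2 times the lowest in 37 genes, against 22.2% of the eligible genes, and the median ratio was 1.68, against 1.47. In the normal group the ratio reached 2 in 10 genes, against 11.7%, and in the acupuncture group in 6, against 12.2%. The median share of a gene's squared deviations that came from the HIBD model libraries was 84.1%, against 50.4% for the eligible genes. The normal libraries gave 9.18% and the acupuncture libraries 5.09%.

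With the groups taken one at a time, the 99 other genes followed ENSRNOG00000009577 in different degrees. Each value here is a correlation over 4 libraries that the rule also used. In the HIBD model group the median r was 0.98 and the lowest 0.94, while the eligible genes had a median of 0.65 and 22.8% were above 0.9. In the normal group the median was 0.90, 49 genes were above 0.9 and the lowest was 0.18, while the eligible genes had a median of 0.18 and 7.80% were above 0.9. In the acupuncture group the median was 0.77 and 22 genes were above 0.9, while the eligible genes had a median of 0.13 and 5.70% were above 0.9. The lowest acupuncture value was −0.90, and 94 of the 99 were above 0. Between the members themselves, r over 12 libraries ran from 0.769 to 0.996 over 4950 pairs, with a median of 0.91.

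**Figure D3:**
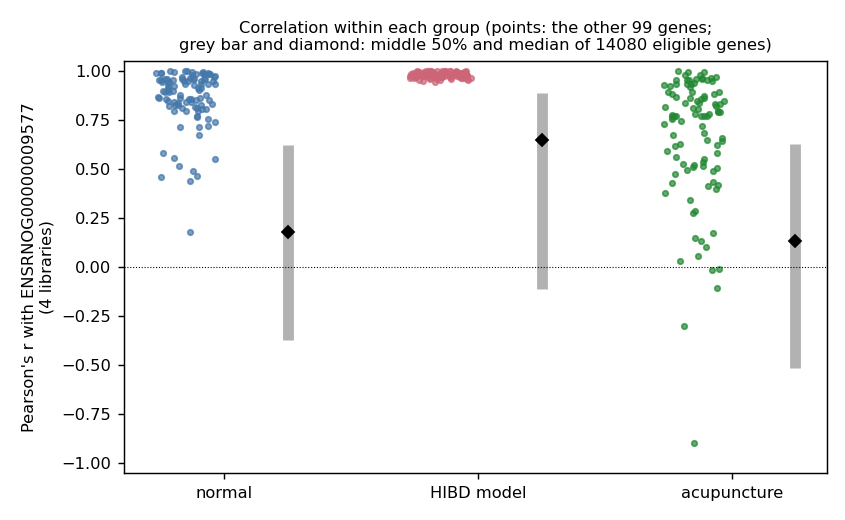
Pearson r of the other 99 genes with ENSRNOG00000009577 within each group of 4 libraries (points), with the middle range (quartiles, grey bar) and median (black diamond) of the 14080 eligible genes. The points start at 0.94 in the HIBD model group, at 0.18 in the normal group and at −0.90 in the acupuncture group.

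The reference gene was correlated with much of the transcriptome, and the list is the upper end of a continuous range. Over the eligible genes r had quartiles of −0.06, 0.39 and 0.67, and 72.5% were above 0. It was above 0.9 in 311 genes and below −0.9 in 30. The last member, ENSRNOG00000027456, had r = 0.9342, and the first gene outside the list, ENSRNOG00000050106, had r = 0.9339. ENSRNOG00000027456 held 1.09, 1.33, 0.88 and 1.35 CPM in normal, 1.78, 0.73, 0.72 and 1.88 in HIBD model and 0.90, 0.90, 0.73 and 0.74 in acupuncture. It had the same 2 highest HIBD model libraries as the genes at the top of the list. At the other end, ENSRNOG00000033134, named after its values were seen, had the lowest r, −0.97. It held 611, 1995, 1362 and 647 CPM in HIBD model 2, 8, 16 and 18, the opposite order, and its acupuncture libraries, at 1790 to 2229 CPM, lay above its normal libraries, at 718 to 1274 CPM.

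Part of this movement was shared by genes in general. The median eligible gene stood 0.14 and 0.06 above its own mean over 12 libraries in HIBD model 2 and 18, on the log2 scale, and 0.10 below it in both 8 and 16. The median member stood 0.40 above its own mean in both 2 and 18, with −0.35 in 8 and −0.23 in 16. Rescaling the totals by the trimmed mean of M-values (TMM), which sets the bulk of genes level between libraries, brought the median r of the eligible genes from 0.39 to 0.13. The median r of the 100 genes was then 0.91, the lowest was 0.62, and 62 were above 0.9. With TMM, HIBD model 2 and 18 were the 2 highest for all 100 genes, against 37.4% of the eligible genes, and 63 of the 100 were selected again.

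Which genes filled the list depended on single libraries. When the rule was run without HIBD model 8, 18 of the 100 were selected again, without HIBD model 16 it was 57 and without normal 10 it was 64. Each of the other 9 omissions left 69 to 85 of them. With the whole HIBD model group left out 14 were selected again, with the normal group left out 38, and with the acupuncture group left out 45. These 3 omissions were added after the data had been seen. With ranks (Spearman) in place of Pearson r, 33 were selected again.

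Expression was then compared between groups with edgeR's quasi-likelihood test on all 27885 genes that passed its filter on low counts, with Benjamini-Hochberg adjustment over all of them. All 100 genes passed the filter. None had an adjusted p under 0.05 in any of the 3 comparisons, which share their libraries and so are not independent of each other. Because the 100 genes move together, a count of them is not a count of separate results.

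The acupuncture group held lower levels than the normal group for 93 of the 100 genes, with a median log2 fold change of −0.28. Among the eligible genes 61.5% were lower and the median was −0.08. The unadjusted p was under 0.05 and the level lower for 47 of the 100, against 16.4% of 14073 eligible genes in the fit, and it was under 0.05 and the level higher for none, against 7.68%. None of the 100 was called at an adjusted p under 0.05, where 0.0825% of all genes tested were. The smallest adjusted p among them was that of ENSRNOG00000009577, with a log2 fold change of −4.99 ± 0.88 (SE) and an adjusted p of 0.0714 by edgeR. ENSRNOG00000056714, the gene that tracked it most closely, had −2.48 ± 0.54 and an adjusted p of 0.101. The member with the lowest p among those of higher level was ENSRNOG00000013533, at 0.06 ± 0.05 and an adjusted p of 0.461.

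For 62 of the 100 genes every normal library was above every acupuncture library, against 19.8% of the eligible genes, and with TMM it was 64. For none was every acupuncture library above every normal one, against 4.55%, and with TMM it was 1. The rule favoured genes with little of their spread in these 2 groups, and groups of small spread overlap less. In normal the median ratio of highest to lowest library was 1.22, against 1.28 for the eligible genes. In acupuncture it was 1.16, against 1.29. The counts without overlap are therefore not independent of the selection. The calls for this comparison rested on the fit. A fit of the normal and acupuncture libraries alone called 30 of the 100, all lower, where 3.07% of all genes tested were called. That fit leaves out the HIBD model libraries, where a median of 84.1% of the members' squared deviations lay. The rule favoured this, so the 30 calls are not independent of the selection. DESeq2 called 29, all lower, where 15.5% of all genes were. Without normal 10 there were 7 calls among the 100, below the 10.8% of all genes called in that fit. Without HIBD model 8, which belongs to neither group, there was 1, where 0.0524% of all genes were called. Without normal 13, 26 of the 100 were lower at an unadjusted p under 0.05 in place of 47. The share of all genes tested was then 6.81% in place of 10.4%. With 1 surrogate variable as a covariate, which was negative in all normal and positive in all acupuncture libraries, 49 of the 100 were lower. Of these, 4 had an unadjusted p under 0.05 by edgeR, and the median of the 100 was 0.0043. Of all genes tested in that fit, 50.9% were lower, and 2.71% were lower at that threshold.

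The 20 genes with a standard deviation over 0.5, a class drawn after the values had been seen, carried the largest of these differences at the median. That cut used the same centred values as the selection rule, so the larger differences are not a separate result. All 20 were lower in acupuncture than in normal, with a median log2 fold change of −1.49 and a range of −4.99 to −0.46, and in 17 the libraries did not overlap. Among the other 80 the median was −0.20, 73 were lower, and the libraries did not overlap in 45. Over all eligible genes 61.5% were lower, and in 19.8% every normal library was above every acupuncture library. The shares among eligible genes of like spread were not computed. ENSRNOG00000014550, at −1.42 ± 0.39 (SE) with an adjusted p of 0.104 by edgeR, was the most abundant of the 20 by CPM.

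Between acupuncture and HIBD model, 95 of the 100 genes were lower in acupuncture, with a median log2 fold change of −0.19, against 47.3% and a median of 0.01 among the eligible genes. The unadjusted p was under 0.05 for 31 lower genes, against 3.94% of the eligible genes, and for no higher gene, against 2.48%. None of the 100 was called at an adjusted p under 0.05 by edgeR, and 0% of all genes tested were. DESeq2 called 3, where 0.66% of all genes were called. The reference gene again had the lowest p, with a log2 fold change of −3.85 ± 0.83 (SE) and an adjusted p of 0.907. The lowest p among higher genes was that of ENSRNOG00000012386, at 0.17 ± 0.10 with an adjusted p of 0.995. The median was −0.10 without HIBD model 18, with 88 genes lower, −0.14 without HIBD model 2, with 90 lower, and −0.28 without HIBD model 8, with 96 lower. With 1 surrogate variable it was −0.11, with 88 lower, where 48.6% of all genes tested were. The count of 31 became 12 without HIBD model 2, 9 without HIBD model 18, 60 without HIBD model 8 and 17 without acupuncture 55. The share of all genes tested that were lower at that threshold moved too. It was 3.37% with all libraries, and 2.21%, 1.77%, 4.78% and 2.60% in these 4 fits. A fit of the 2 groups alone gave 16, limma-voom 15 and log2(FPKM + 0.1) in limma 10. Among all genes tested, 2.14%, 2.46% and 2.54% were lower at that threshold in these fits. DESeq2 gave 38, against 4.77%.

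The libraries of these 2 groups overlapped for nearly the whole list, as they did for nearly all eligible genes. Every HIBD model library was above every acupuncture library for 2 of the 100 genes, against 1.19% of the eligible genes, and the reverse held for none, against 0.874%. Both counts were near those shares and are not a result about the list. The 2 genes were ENSRNOG00000016550 and ENSRNOG00000032136, which were singled out after their values were seen. ENSRNOG00000016550 held 250.0, 144, 143 and 274 CPM in HIBD model 2, 8, 16 and 18 and 121 to 137 CPM in acupuncture. ENSRNOG00000032136 held 16.3, 8.50, 8.92 and 17.3 CPM in HIBD model and 7.71 to 8.38 CPM in acupuncture. In both genes HIBD model 8 and 16 lay much nearer the acupuncture libraries than HIBD model 2 and 18 did.

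The third comparison was HIBD model against normal. The median log2 fold change of the 100 genes was −0.04, with 64 of them lower in HIBD model, against a median of −0.08 and 63.8% lower among the eligible genes. Single HIBD model libraries moved this median in both directions. Without HIBD model 8 it was 0.04, with 45 genes lower, and without HIBD model 16 it was −0.0026, with 50 lower. Without HIBD model 2 it was −0.09, with 68 lower, and without HIBD model 18 it was −0.15, with 80 lower. Without normal 10 it was −0.0099, with 52 lower, and without normal 13 it was −0.02, with 57 lower. The unadjusted p was under 0.05 for 13 lower genes, against 14.9% of the eligible genes, and for 2 higher genes, against 6.44%. With all 12 libraries, the share of lower genes was thus near the background. None was called at an adjusted p under 0.05 by edgeR, where 0.0968% of all genes tested were. DESeq2 called 6 of the 100, 1 higher and 5 lower, and 13.4% of all genes tested.

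The lowest p in this comparison was that of ENSRNOG00000043498, with a log2 fold change of −0.26 ± 0.06 (SE) and an adjusted p of 0.102 by edgeR. It held 110, 113, 111 and 111 CPM in normal, 112, 79.2, 86.6 and 102 in HIBD model and 91.9, 85.1, 87.8 and 84.2 in acupuncture. Its normal libraries agreed closely, and HIBD model 2 lay among them. Among higher genes it was that of ENSRNOG00000006391, at 0.19 ± 0.06 with an adjusted p of 0.123; HIBD model 2 and 18, at 43.0 and 45.6 CPM, were above its normal range of 33.1 to 36.7 CPM, and 8 and 16, at 33.6 and 36.6 CPM, were within it. Every normal library was above every HIBD model library for 1 gene, ENSRNOG00000020470, against 4.27% of the eligible genes, and the reverse held for none, against 3.62%; with TMM the first count was 5. The count of 13 lower genes became 6 without normal 13, 7 without normal 10 and 7 without HIBD model 8. Of all genes tested, 5.58%, 8.64% and 6.85% were lower at that threshold in these fits. It became 8 without normal 8, 8 without HIBD model 16 and 20 without HIBD model 2, against 4.87%, 7.70% and 9.28%. Except without HIBD model 2, these counts were near the share over all genes.

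**Figure D4:**
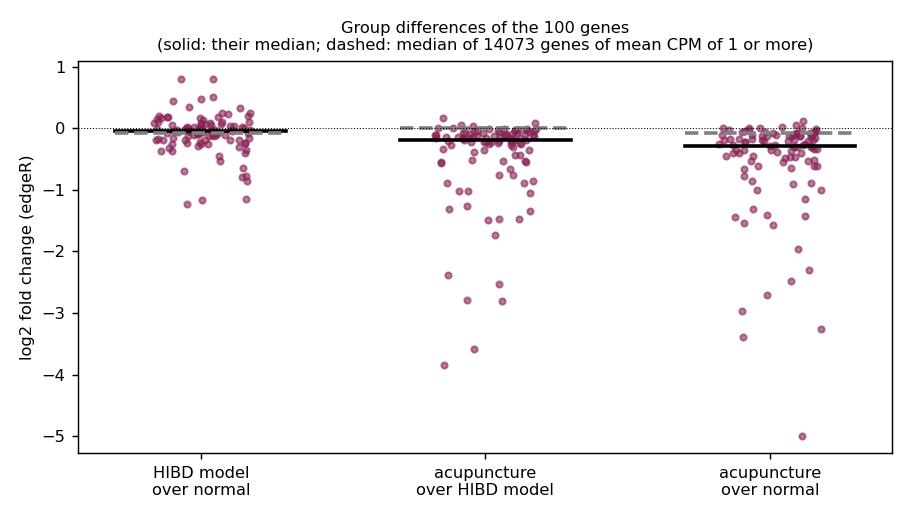
Log2 fold change of each of the 100 genes (points) in the 3 comparisons, from the edgeR fit, with the median of the 100 as a solid line and the median of 14073 eligible genes as a dashed line. The 100 genes centre at −0.04 for HIBD model against normal, −0.19 for acupuncture against HIBD model and −0.28 for acupuncture against normal, and the tail in the last comparison reaches −4.99.

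The transcript models behind the list were described alongside those of the other eligible genes, with no test. A single transcript row carried 45 of the 100 genes, against 39.8% of the eligible genes, and the median number of rows was 2 in both. A transcript assembled by the authors was present in 25, against 42.2%. The ratio of estimated count to FPKM, which rises with transcript length, could be read for 80 of the 100 and 9673 eligible genes, and its median was 0.42 higher on the log2 scale in the members. The interquartile range was −0.34 to 1.5 in the members and −1.16 to 1.23 in the eligible genes, both relative to the eligible median.

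Loci that the authors assembled outside the Ensembl genes were not eligible for the list. Of 1408 such loci with a mean of at least 1 CPM, 4 had r above 0.9 with the reference gene and none reached the value of the last member; the median r was −0.15. These loci took 0.795% to 2.35% of the estimated count per library. The normal libraries 8, 11 and 13 lay at 0.795% to 0.874%, while normal 10 had 1.51%, HIBD model 1.43% to 2.35% and acupuncture 1.13% to 2.24%. HIBD model 8 and 16 had 2.02% and 2.35%, and HIBD model 2 and 18 had 1.43% and 1.79%, so this share was lower in the 2 libraries where the list was higher. The other groups did not share that order: acupuncture 5 and normal 10, both high for most of the list, had the highest share of their groups, 2.24% and 1.51%. Its part in the group differences was not tested.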

How the data were processed

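Total RNA of frozen prefrontal cortex was sequenced in 12 libraries, per the labels' protocols. The submitters' processing notes name HTSeq 0.6.0 and Rnor_6.0, with roles unstated. Aligner, assembler and strand setting were not given in the sources used here. Both kinds of table were used. The authors deposited 1 table of estimated counts (78025 transcript rows) and 1 table of FPKM per library. The estimated counts total 714904584 to 1090316733 per library and are not single reads, so no counting interval is given. Rows were summed to 43206 genes, 32883 of them with Ensembl identifiers.

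The members and lists were chosen with earlier results of these data known. Groups were compared with edgeR 4.0.16 (quasi-likelihood, TMM, all 12 libraries, Benjamini-Hochberg over 27885 genes). The code was run on simulated counts drawn independently per gene, which does not show how the test behaves when genes move together. The design had assumed raw counts; the estimated counts are whole numbers and were used as deposited. Alternatives used DESeq2 1.42.0, limma 3.58.1 and sva 3.50.0. Named genes are the reference gene, the next 5 by r, the 3 largest standard deviations, the 3 highest mean CPM, the last member and the lowest p per direction and comparison; a longer list had been planned and was shortened because identifiers could not be paired with names. Marker lists, gene functions and sequences are not analysed here.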

Additional observations from a re-analysis of the deposited data

Results flagged for a closer look

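Within single groups, 3 values lay far from the other 3 libraries for the gene, out of 51 groups of 4 examined (each of the genes named by rule and the members' median, in 3 groups); chance alone gives about 1 in 20. ENSRNOG00000009577 was highest in acupuncture 5, at 14.7 CPM, with the other acupuncture libraries at 6.92 to 8.25 CPM. ENSRNOG00000022163 was also highest in acupuncture 5, at 0.582 CPM, with the others at 0.084 to 0.129 CPM. ENSRNOG00000012386 was lowest in acupuncture 22, at 8.59 CPM, with the others at 9.05 to 9.11 CPM. Acupuncture 5 had the smallest total of the 12 libraries, 714904584; its part in these values was not tested.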

How the results depend on the processing

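The depth in reads is unknown. Members called at an adjusted p under 0.05, 0 in each comparison, became 6 for HIBD model against normal, 3 for acupuncture against HIBD model and 29 for acupuncture against normal with DESeq2, where 13.4%, 0.66% and 15.5% of all genes were called. For acupuncture against normal the count was 30 in a fit of the 2 groups alone (3.07% of all genes) and 12 with log2(FPKM + 0.1) in limma (6.24%). The fit of the 2 groups leaves out the HIBD model libraries, where the rule favoured spread, so its count is not independent of the selection. The count was 0 to 7 when 1 library was left out (10.8% of all genes in the fit with 7). The cause of these differences between fits was not tested. The median log2 fold change of acupuncture against normal was 0.0043 with 1 surrogate variable as a covariate. That variable was negative in all normal libraries and positive in all acupuncture libraries. It was also negative in HIBD model 2 and 18 (−0.24 and −0.11) and positive in 8 and 16 (0.31 and 0.42). What the variable stands for was not tested. With it, 49 members were lower in acupuncture than in normal, near the 50.9% of all genes tested. The median of HIBD model against normal was then 0.12, with 29 lower, where 51.0% of all genes tested were. The members selected again numbered 33 with Spearman's rho, 21 without subtraction of group means, 60 with log2(FPKM + 0.1), 63 with TMM and 18 to 85 when 1 library was left out; with the normal, HIBD model or acupuncture group left out they numbered 38, 14 and 45. Raising the pseudocount to 1 kept 96, and a minimum mean of 10 CPM kept 71. No paired analysis was possible because the groups share only the number 8, between normal and HIBD model.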
